A study of Mus musculus with 4 samples.

Results

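Interleukin-10 (Il10), the 2 chains of its receptor (Il10ra and Il10rb) and the transcription factor genes Maf and Prdm1 were compared between large intestine CD4 T cells that did or did not express the chemoattractant receptor gene Gpr15. The 5 genes were chosen by name, out of 18193 genes with a probe set of 1 symbol on the array, and each was followed through its brightest probe set, with its other probe sets beside it (13 in all). Mice of mixed 129/B6 background carried green fluorescent protein (GFP) in the Gpr15 locus on 1 chromosome, so cells of both groups were heterozygous and GFP stood for Gpr15 expression. CD4+ T cells were freed from the lamina propria of the large intestine with collagenase and sorted into GFP+ cells (labelled GPR15positive, 2 arrays) and GFP- cells (labelled GPR15negative, 2 arrays), with no treatment named in the labels. The labels give neither age nor how many mice went into a sample, so p-values measure the spread between these samples only. One line of the series description writes the GFP- cells as lacking CD4, against the sample labels.

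IL-10 is the main anti-inflammatory cytokine made by gut CD4 T cells, both by Foxp3+ regulatory cells and by Foxp3- type 1 regulatory cells, and its loss leads to colitis. It binds a receptor of a ligand-binding chain, IL-10R1 (gene Il10ra), and a chain shared with the receptors of IL-22 and the lambda interferons, IL-10R2 (gene Il10rb), which signals through the kinases Jak1 and Tyk2 to Stat3. The transcription factors c-Maf (gene Maf) and Blimp1 (gene Prdm1) are known to promote IL-10 in T cells, c-Maf also acts on the genes of IL-4 and IL-21, and Blimp1 is known as a repressor of Il2 and Bcl6.

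Gpr15 followed the sort, with signals of 146 and 162 on the GFP- arrays and 619 and 729 on the GFP+ arrays. The arrays of each replicate number differed in 1 more respect that ran across the groups, since Xist, transcribed from the inactive X chromosome, was bright on both replicate 1 arrays (4172 and 4313) and dim on both replicate 2 arrays (55.1 and 112). Eif2s3y, a Y chromosome gene, was the reverse, at 18.9 and 5.08 on replicate 1 and 2329 and 2177 on replicate 2 arrays. This is the pattern of female RNA on replicate 1 and male RNA on replicate 2. Each SD within a group takes in this difference. A list of 6 genes of T cell identity had summed signals of 13301 and 12771 on the GFP- and 13134 and 11176 on the GFP+ arrays, and the brightest of them, Cd3e and Cd3d, differed by -0.16 and -0.27. Of the 6, 2 were positive, Cd2 (0.34, groups not overlapping) and Cd5 (0.12). The 4 negative ones included Cd3g (-0.35) and Cd4 (-0.01, with its 2 probe sets from -0.38 to -0.01). Of markers of other cells, those of epithelium were highest on GFP+ replicate 1 and those of myeloid cells on GFP+ replicate 2, and their sums are given beside the genes they move with. Summed signals of mast cell markers were 180 and 158 on the GFP- and 240 and 367 on the GFP+ arrays, those of natural killer and innate lymphoid markers 146 and 107 against 182 and 363, and those of the CD8 genes 76.9 and 61.4 against 64.4 and 84.7. Kit, the stem cell factor receptor gene, was in both the mast cell and the innate lymphoid list and counts in both sums. Its signals were 64.4 and 26.5 in GFP- and 98.1 and 270 in GFP+ cells (1.63). The other tested markers Tpsb2, Klre1 and Cd8a differed by 0.06, 0.43 and 0.44, but the 5 probe sets of Cd8a ran from -0.57 to 0.44. Too dim to be tested were 4 of the 6 mast cell markers and 2 of the 4 innate lymphoid ones on the array. Of these, Mcpt1 (-0.93), Cpa3 (-0.26) and Klra8 (-0.75) were lower in GFP+ cells, and Mcpt2, Fcer1a and Ncr1 were higher. Cd8b1, the other CD8 gene, was also too dim and was lower in GFP+ cells (-0.44). Signals are linear intensities, and differences are GFP+ minus GFP- on the log2(signal + 16) scale, which understates the change of dim genes.

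Il10 and Prdm1 were more than 2-fold higher in GFP+ cells, Il10rb only just reached 2-fold (1.03), and Il10ra was higher by less than 2-fold. Maf, a bright gene in both groups, was close to level on its brightest probe set. All 5 genes lay above the filter for dim genes. At an adjusted p under 0.05 (limma, Benjamini-Hochberg over 12252 tested genes) 0 of the 5 passed, where 0.0326% of all tested genes did. At an unadjusted p under 0.05 there were 4 of the 5 higher, against 10.2% of all tested genes. Il10, Prdm1 and Il10rb made 3 of 5 that were at least 2-fold higher with groups that did not overlap, where 3.4% of all tested genes were. Il10rb fell below 2-fold in some other fits, given below. For 4 of the 5, all but Maf, both GFP+ arrays lay above both GFP- arrays, which held for 28.7% of all tested genes. The median difference of all tested genes was 0.07.

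**Figure D1:**
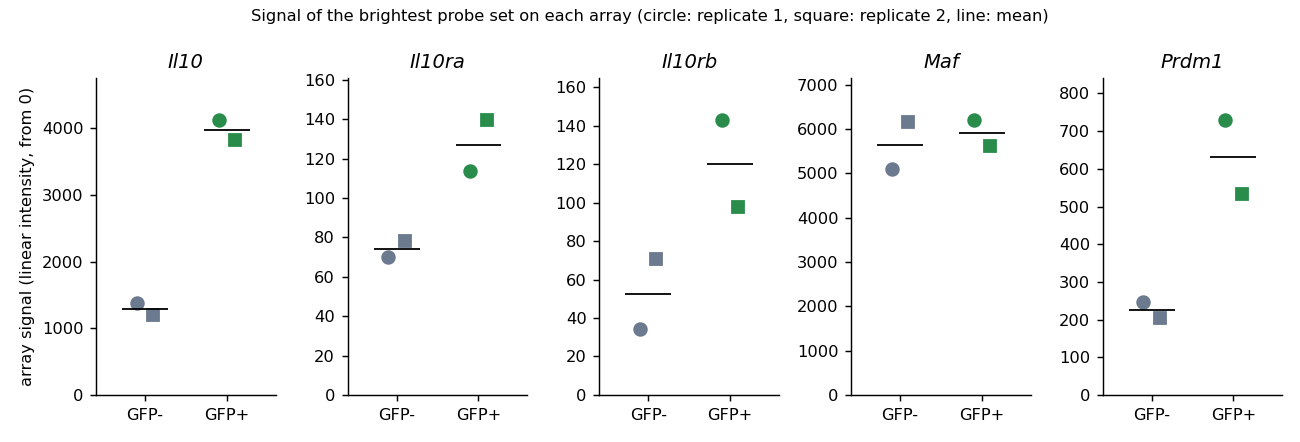
Linear signal of the brightest probe set of each gene on each array, with GFP- arrays in grey, GFP+ arrays in green, circles for replicate 1, squares for replicate 2 and a line at the mean of the 2 arrays. For Il10 the GFP+ arrays sit at 4131 and 3825, above the GFP- arrays at 1379 and 1198, while for Maf the groups overlap between 5112 and 6214.

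**Figure D2:**
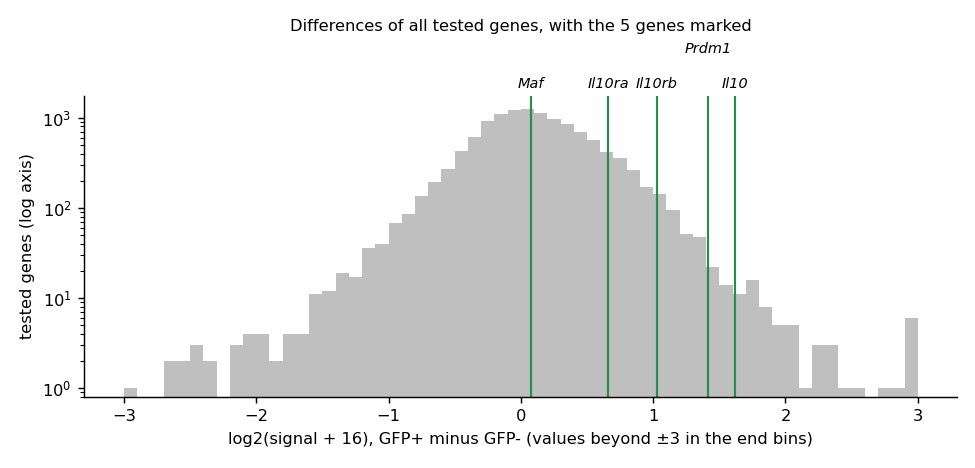
Histogram of the differences of the 12252 tested genes on the log2(signal + 16) scale, with the number of genes on a log axis and values beyond 3 in the end bins. Green lines mark the 5 genes, from Maf at 0.07, in the middle of all genes, to Il10 at 1.62 in the upper tail.

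Il10 had signals of 1379 and 1198 on the GFP- replicate 1 and replicate 2 arrays and of 4131 and 3825 on the GFP+ ones. The groups were far apart, and the arrays of each group lay close to each other. The means were 1288 ± 127 and 3978 ± 216 (SD, n = 2 each), a ratio of 3.09. The log2 difference was 1.62 (95% interval 1.09 to 2.15, limma adjusted p = 0.118), the 60th largest of the 12252 tested genes and above 99.5% of them. Within replicate 1 the difference came to 1.57, and within replicate 2 to 1.66. The 1 probe set named Il10 was the only one, so no other could be set beside it. Over 15 other fits the difference ran from 1.30 under median scaling to 1.72 and the adjusted p from 0.000219 to 0.362, under 0.05 in 3 of them.

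Macrophages also make IL-10, and a list of 10 myeloid marker genes was summed on each array. The sums were 240 and 403 on the GFP- arrays and 347 and 1480 on the GFP+ arrays, and 7 of the 10 genes passed the filter for dim genes, with Adgre1, Itgam and C1qa below it. Csf1r, the receptor of macrophage colony-stimulating factor, had signals of 7.73 and 10.7 in GFP- cells and of 35.5 and 164 in GFP+ cells, a difference of 1.93, with its 3 probe sets from 0.09 to 1.93. The brightest others, Fcer1g and C1qb, differed by 0.51 and 1.67, and C1qb was at 700 on GFP+ replicate 2 and at 13.7 to 85.0 on the other arrays. Without GFP+ replicate 2, the array with the highest myeloid sum, the Il10 difference was 1.67. In that fit 5 of the 7 tested myeloid markers still had a positive difference. The part of myeloid cells in the Il10 result was not tested. In RNA of sorted cells as a whole, a different share of Il10-expressing cells and a different amount of Il10 RNA per cell cannot be told apart, which holds for each gene described here.

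Prdm1 encodes Blimp1, and its 1 probe set gave signals of 245 and 204 in GFP- cells and of 730 and 533 in GFP+ cells. The GFP+ arrays were both above the GFP- arrays, with more spread between them than for Il10. The means were 225 ± 29.3 and 632 ± 140 (SD, n = 2 each), a ratio of 2.81. The log2 difference was 1.42 (0.79 to 2.04, limma adjusted p = 0.164), the 93rd largest, and it was 1.51 within replicate 1 and 1.32 within replicate 2. Over the 15 other fits it ran from 1.11 under median scaling to 1.64, with an adjusted p from 0.0111 to 0.426 that was under 0.05 in 2 of them.

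Prdm1 is also the master regulator of plasma cells, and plasma cell markers moved in part with it. Their summed signals were 4232 and 5056 on the GFP- arrays and 7076 and 4816 on the GFP+ arrays, with 5 of 6 listed names on the array and Tnfrsf17 below the filter. Most of each sum came from Jchain, the joining chain of secreted immunoglobulins, at 3852 and 4455 in GFP- and 6219 and 4093 in GFP+ cells. Xbp1, a factor of the secretory program, and the syndecan gene Sdc1 differed by 0.93 and 0.34, and Derl3 by 0.79. The 4 probe sets of Xbp1 ran from 0.14 to 0.93, and all 4 tested markers had a positive difference, as did 57.7% of all tested genes. Between the replicate 2 arrays the plasma cell sum was lower in GFP+ cells while Prdm1 differed by 1.32. Between these arrays Jchain and Sdc1 differed by -0.12 and -0.22, but Xbp1 and Derl3 by 0.58 and 0.11. Without GFP+ replicate 1, the array with the highest plasma cell sum, the Prdm1 difference was 1.19. B cell markers summed to 133 and 162 in GFP- and to 227 and 202 in GFP+ cells, with Ms4a1 and Cd79b at differences of 0.47 and 0.83. Cd79a and Blk differed by 0.03 and 0.12. Of these 4 tested B cell markers, 2 were negative under quantile, cyclic loess or median normalization. The part of plasma cells and B cells in the Prdm1 result was not tested.

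The stretch of 250 bases before the RefSeq start of Prdm1 (chr10:44458749-44458998, minus strand, GRCm38.p6) is shown because Prdm1 was the transcription factor gene of the 5 that stood apart between the groups. Those of the c-Maf target genes Il4 (chr11:53618666-53618915, minus strand) and Il21 (chr3:37232637-37232886, minus strand) are shown because both were lower in GFP+ cells while Maf differed by 0.07. Capitals mark TGANTCA, the element of AP-1 factors such as Batf and its partners, in Prdm1, and TGCTGA, the core element of Maf factors, in Il4 and Il21. All were read 5′ to 3′ on the gene's strand from the RefSeq promoter table.
Prdm1: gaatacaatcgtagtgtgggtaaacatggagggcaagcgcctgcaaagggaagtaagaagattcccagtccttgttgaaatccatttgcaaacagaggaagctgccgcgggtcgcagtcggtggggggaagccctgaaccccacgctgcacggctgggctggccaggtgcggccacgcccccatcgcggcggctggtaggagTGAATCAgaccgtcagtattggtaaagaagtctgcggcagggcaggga
Il4: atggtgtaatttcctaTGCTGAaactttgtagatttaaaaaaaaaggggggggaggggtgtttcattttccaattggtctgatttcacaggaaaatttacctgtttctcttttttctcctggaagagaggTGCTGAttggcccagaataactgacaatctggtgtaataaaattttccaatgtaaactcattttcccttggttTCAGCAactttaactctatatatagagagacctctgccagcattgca
Il21: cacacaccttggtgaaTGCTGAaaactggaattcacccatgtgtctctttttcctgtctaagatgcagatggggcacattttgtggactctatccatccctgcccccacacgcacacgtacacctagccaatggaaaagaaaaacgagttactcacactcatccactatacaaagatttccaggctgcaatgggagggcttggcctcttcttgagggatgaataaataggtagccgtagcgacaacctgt

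The Prdm1 window held 1 match to TGANTCA, starting 48 bases before the start, and 0 matches to TGCTGA, to the Blimp1 core AGTGAAAG or to the STAT element TTCNNNGAA. The Il4 window held 3 matches to TGCTGA, starting 234, 120 and 47 bases before the start, the last of them on the other strand, and the Il21 window held 1, starting 234 bases before its start. A second RefSeq window of Il4 held 0. Searched on both strands, TGANTCA was in 6.75% of 32851 promoter windows of this length, TGCTGA in 16.1%, TTCNNNGAA in 7.02% and AGTGAAAG in 1.09%, and TGCTGA can share its last 3 letters with TGANTCA. A match is a run of letters and not a measured binding site. Windows of Il10, Il10ra, Il10rb and Maf are not shown.

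Maf encodes c-Maf and was bright in both groups on 3 of its 6 probe sets. The brightest gave signals of 5112 and 6155 in GFP- cells and of 6214 and 5615 in GFP+ cells. These overlap, with the lowest value on GFP- replicate 1. The means were 5633 ± 737 and 5915 ± 424 (SD, n = 2 each), a log2 difference of 0.07 (-0.48 to 0.63, limma adjusted p = 0.912), above 49.9% of the tested genes. The interval leaves room for a difference of up to 0.63 and does not show that the groups are alike. The difference was 0.28 within replicate 1 and -0.13 within replicate 2, was -0.06 without GFP- replicate 1, and was -0.24 under median scaling, which lowered the median of all tested genes by a shift of -0.27.

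The other 5 probe sets of Maf gave different values. The next 2 in brightness differed by 0.22 (-0.35 to 0.79) and 0.29 (-0.29 to 0.86). On both, the GFP+ arrays were just above the GFP- arrays, at 3974 and 3280 against 3228 and 2980 on one and at 4067 and 3256 against 2984 and 2978 on the other. A pair of dimmer probe sets differed by 0.61 (-0.08 to 1.30) and 0.53 (-0.03 to 1.10). The first of these gave 262 and 377 in GFP- and 428 and 558 in GFP+ cells, and the other gave 320 and 285 against 409 and 483. The dimmest went the other way, at 42.9 and 64.2 in GFP- and 29.7 and 29.3 in GFP+ cells, a difference of -0.60 (-1.21 to 0.02). In all, 5 of the 6 had a positive difference, and on 4 of them both GFP+ arrays were above both GFP- arrays. On their brightest probe sets, 57.7% and 28.7% of all tested genes did so. In the limma fit over 27023 probe sets 0 of the 6 passed, as did 0 of all probe sets in that fit. The mean of the 6 differed by 0.19.

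**Figure D3:**
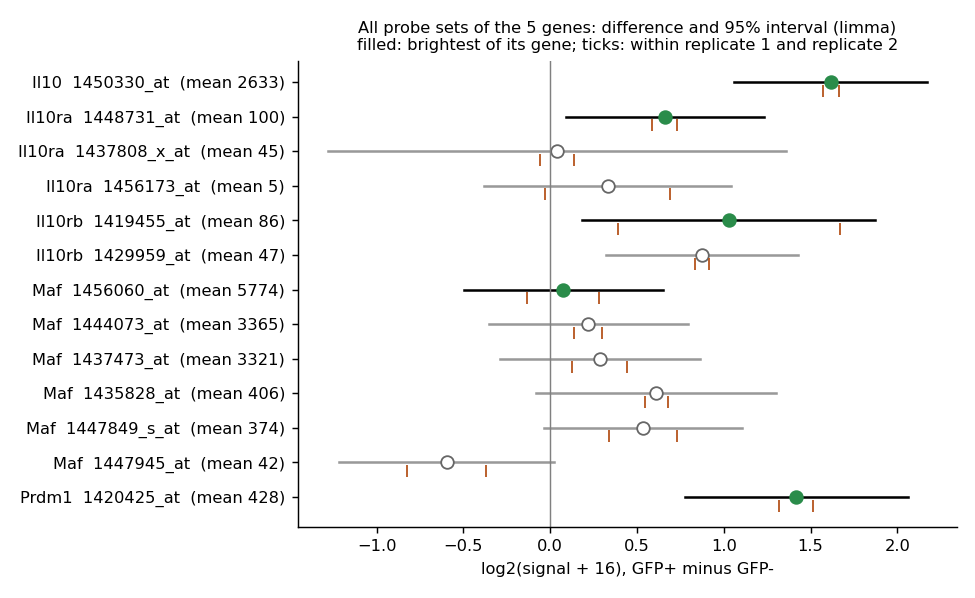
Log2(signal + 16) differences, GFP+ minus GFP-, of all 13 probe sets of the 5 genes, with limma 95% intervals from the fit over 27023 probe sets. Filled points mark the brightest probe set of a gene and ticks the differences within replicate 1 and within replicate 2. The interval of Maf crosses 0 on all 6 of its probe sets, whose points run from -0.60 to 0.61, while Il10 and Prdm1 lie at 1.62 and 1.42.

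Because Maf differed so little beside Il10 and Prdm1, the genes were also set against each other within each array, where the scaling of the array nearly cancels. The log2 ratio of Il10 to Maf was -1.88 and -2.35 on the GFP- arrays and -0.59 and -0.55 on the GFP+ arrays. It was thus higher on both GFP+ arrays, by 1.29 within replicate 1 and 1.79 within replicate 2. The ratio of Prdm1 to Maf was higher by 1.23 and 1.45. The ratio of Il10 to Prdm1 was of like size on all arrays, at 2.42 and 2.47 in GFP- cells and 2.47 and 2.81 in GFP+ cells. These ratios show unequal differences of the genes, with no test, and say nothing of which gene was stable.

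Il10ra, the ligand-binding receptor chain, gave signals of 70.3 and 78.0 in GFP- cells and of 114 and 140 in GFP+ cells on its brightest probe set. The groups did not overlap, and the means were 74.1 ± 5.44 and 127 ± 18.4 (SD, n = 2 each), a ratio of 1.71. The log2 difference was 0.66 (0.11 to 1.21, limma adjusted p = 0.29), above 88.7% of the tested genes, with 0.59 and 0.73 within the replicate numbers. It was 0.39 under median scaling and 0.34 with the mean of its 3 probe sets. The second probe set, of a kind that can bind related sequences, followed the replicate number and not the group, at 64.8 and 72.8 on the GFP- and GFP+ replicate 1 arrays and at 21.3 and 19.9 on the replicate 2 arrays, with a difference of 0.04 (-1.28 to 1.36). The last lay below the filter for dim probe sets, at 1.68 and 2.37 in GFP- and 12.5 and 2.0 in GFP+ cells.

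Il10rb, the shared chain, gave 34.1 and 70.7 in GFP- cells and 143 and 97.6 in GFP+ cells. The groups did not overlap, but the arrays of each group were far apart. The means were 52.4 ± 25.9 and 120 ± 32.2 (SD, n = 2 each), a log2 difference of 1.03 (0.18 to 1.87, limma adjusted p = 0.285), made up of 1.67 for replicate 1 and 0.39 for replicate 2. Over the 15 other fits it ran from 0.63 without GFP- replicate 1 to 1.42 without GFP- replicate 2. It was 0.90 under quantile, 0.89 under cyclic loess and 0.77 under median normalization. With the mean of its probe sets it was 0.95, and with a pseudocount of 64 it was 0.67. Its other probe set was steadier, at 25.8 and 31.4 in GFP- and 62.9 and 68.4 in GFP+ cells. The difference there was 0.87 (0.32 to 1.43, limma adjusted p = 0.262 over 27023 probe sets), with 0.92 and 0.83 within the replicate numbers.

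Epithelial cells also carry IL-10R2, and epithelial markers moved with the brighter Il10rb probe set. The 7 markers summed to 525 and 629 on the GFP- arrays and to 2413 and 505 on the GFP+ arrays, and 6 of them passed the filter, all but Vil1. The GFP+ replicate 1 array, with the highest sum, also had the highest Il10rb signal. Epcam, an epithelial adhesion molecule, was higher on both GFP+ arrays, at 246 and 175 against 72.3 and 42.5, and Krt18, a keratin, was at 225 and 76.5 against 38.2 and 50.6. The other 4 tested markers, Zg16, Cdh1, Krt8 and Krt20, were on GFP+ replicate 2 below both GFP- arrays, at 82.4, 63.9, 83.2 and 15.8, and the difference for Krt20 was -0.20. Without GFP+ replicate 1 the difference of Il10rb was 0.78. Between the replicate 2 arrays, where the epithelial sum was lower in GFP+ cells, both Il10rb probe sets were higher in GFP+ cells. The part of epithelial cells in the Il10rb result was not tested.

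**Figure D4:**
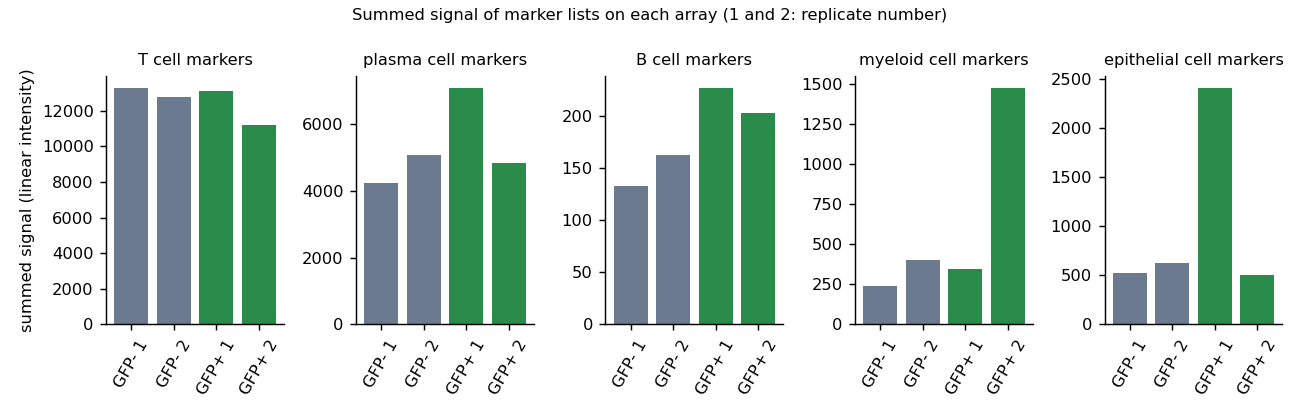
Summed linear signal of 5 lists of marker genes on each array, with GFP- arrays in grey and GFP+ arrays in green and a scale of its own from 0 for each list. T cell markers run from 11176 to 13301, while the myeloid sum of 1480 on GFP+ replicate 2 and the epithelial sum of 2413 on GFP+ replicate 1 each stand above the other 3 arrays.

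Downstream of the receptor, 5 of 6 listed signalling and response genes were tested, and 0 passed in either direction. Their median difference was -0.13, and over the other fits it ran from -0.40 to 0.28. There were 2 positive and 3 negative, where 57.7% of all tested genes were positive. Bcl3, an atypical NF-kB regulator induced by IL-10, was the member that differed most, at 84.2 and 155 in GFP- and 242 and 253 in GFP+ cells, a difference of 1.01 (0.25 to 1.77). Stat3 differed by 0.13 (-0.57 to 0.82) on the brightest of 4 probe sets, which ran from 0.13 to 0.96, and Jak1 by -0.37 (-0.88 to 0.13) on the brightest of 3, which ran from -0.64 to -0.13. Socs3, the feedback inhibitor that Stat3 induces, had signals of 902 and 1975 in GFP- and 684 and 1049 in GFP+ cells, which overlap, and differed by -0.65 (-1.70 to 0.41), with its 3 probe sets from -1.19 to -0.65.

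Of 10 transcription factor genes known to act on Il10 other than Maf and Prdm1, all were tested and 0 passed. The median was 0.17, and over the other fits it ran from -0.15 to 0.28. There were 7 positive and 3 negative, where 57.7% of all tested genes were positive. Nfil3, a basic leucine zipper factor, had signals of 207 and 293 in GFP- and 483 and 576 in GFP+ cells, a difference of 1.05 (0.41 to 1.69). Ahr, the aryl hydrocarbon receptor that partners c-Maf at Il10 in type 1 regulatory cells, had 1310 and 1674 against 2411 and 3173, a difference of 0.89 (0.26 to 1.53), while its other probe set differed by 0.15. Egr2, which promotes IL-10 and Blimp1 in anergic T cells, went the other way, at 760 and 955 against 421 and 364, a difference of -1.09 (-1.67 to -0.52). The bright genes Ets1 and Irf4 differed by -0.02 and 0.21.

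Receptors whose ligands promote IL-10 went both ways, with 4 of 7 tested genes positive, near the 57.7% of all tested genes. The median was 0.33 and 0 passed. Over the other fits the median ran from 0.01 under median scaling to 0.43. Il2ra, the high-affinity chain of the IL-2 receptor, had 445 and 336 in GFP- and 950 and 919 in GFP+ cells, a difference of 1.24 (0.66 to 1.82). Il6ra, the IL-6 binding chain, had 233 and 244 against 85.6 and 54.7, a difference of -1.58 (-2.22 to -0.95), and its other probe set differed by -0.18. The costimulatory receptor gene Icos and the IL-27 receptor gene Il27ra differed by 0.33 (-0.19 to 0.84) and -0.23 (-0.96 to 0.50).

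Within the IL-10 family, single-symbol probe sets covered 2 of 6 other ligands and 5 of 5 other receptors. Il24 was the 1 ligand tested, at 50.8 and 40.2 in GFP- and 77.3 and 30.3 in GFP+ cells, and Il20 was dim. Of 3 receptors tested, Il22ra2, a soluble antagonist of IL-22, had 55.1 and 7.25 in GFP- and 136 and 106 in GFP+ cells, a difference of 1.75 (0.44 to 3.05). Its GFP- arrays were far apart, and 0 of the 3 receptors passed. Il20ra and Il20rb differed by 0.33 and 0.71.

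Surface and effector genes known from IL-10-producing T cells were compared as 8 of 10 listed genes, of which 0 passed. All 8 had a positive difference, against 57.7% of all tested genes, and the median was 0.74, with 0.65 within replicate 1 and 0.94 within replicate 2, and ran from 0.46 to 0.96 over the other fits. Of the 8, Cd226 differed by only 0.01, with overlapping groups. The groups of Itga2 overlapped too, with a difference of 0.38 (-0.83 to 1.59) and of -0.18 within replicate 1. Under median scaling 6 of the 8 were positive, as was so without GFP- replicate 2. Under quantile or cyclic loess normalization 7 were, as was so without GFP+ replicate 1. Gzmb, a cytotoxic granule protease, had 394 and 482 in GFP- and 2017 and 2375 in GFP+ cells, a difference of 2.29 (1.72 to 2.86, limma adjusted p = 0.0745). Havcr2, the inhibitory receptor TIM-3, had 50.3 and 66.7 against 190 and 184, a difference of 1.46 (0.90 to 2.01). Pdcd1, which encodes PD-1, differed by 1.06 (0.46 to 1.66), Lag3 by 0.87 (0.31 to 1.42) and Ctla4 by 0.31 (-0.25 to 0.87). The list was drawn up with earlier results of these data known.

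The c-Maf target cytokines Il4 and Il21 were both lower in GFP+ cells, and 0 of the 2 passed. Il21 had 434 and 788 in GFP- and 66.8 and 10.7 in GFP+ cells, a difference of -3.68 (-5.11 to -2.25, limma adjusted p = 0.144), and its other probe set differed by -1.76. Il4 had 505 and 256 against 148 and 153, a difference of -1.18 (-2.03 to -0.33, limma adjusted p = 0.259). Il10, likewise a known c-Maf target, was higher in the same cells, as given above. Of the other Maf family genes 3 were tested, with differences from -0.20 for Maff to 0.23 for Mafg and 0.10 for Mafk.

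Among genes that Blimp1 is known to repress, Il2 and Ccr7 were at least 2-fold lower in GFP+ cells and Bcl6 was close to level. Of 10 listed, 9 were on the array with a single symbol and 7 passed the filter. All 7 had a negative difference, where 57.7% of all tested genes had a positive one, the median was -0.66, with -0.87 within replicate 1 and -0.39 within replicate 2, and 0 passed. With no filter on dim genes 2 of 9 were positive, and 1 of 7 was in each of 3 fits without 1 array, all but that without GFP- replicate 1. The median was -0.24 without the filter, -0.31 with a pseudocount of 64 and -1.08 with a pseudocount of 1. Il2 had 780 and 421 in GFP- and 157 and 200 in GFP+ cells, a difference of -1.61 (-2.45 to -0.77, limma adjusted p = 0.187). Ccr7, the lymph node homing receptor gene, had 433 and 661 against 102 and 166, a difference of -1.91 (-2.72 to -1.10, limma adjusted p = 0.151). Bcl6, the follicular helper factor that Blimp1 opposes, was bright and overlapping, at 3730 and 4011 against 3888 and 3174, a difference of -0.14 (-0.69 to 0.41), and Fos differed by -0.24 (-0.84 to 0.36).

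**Figure D5:**
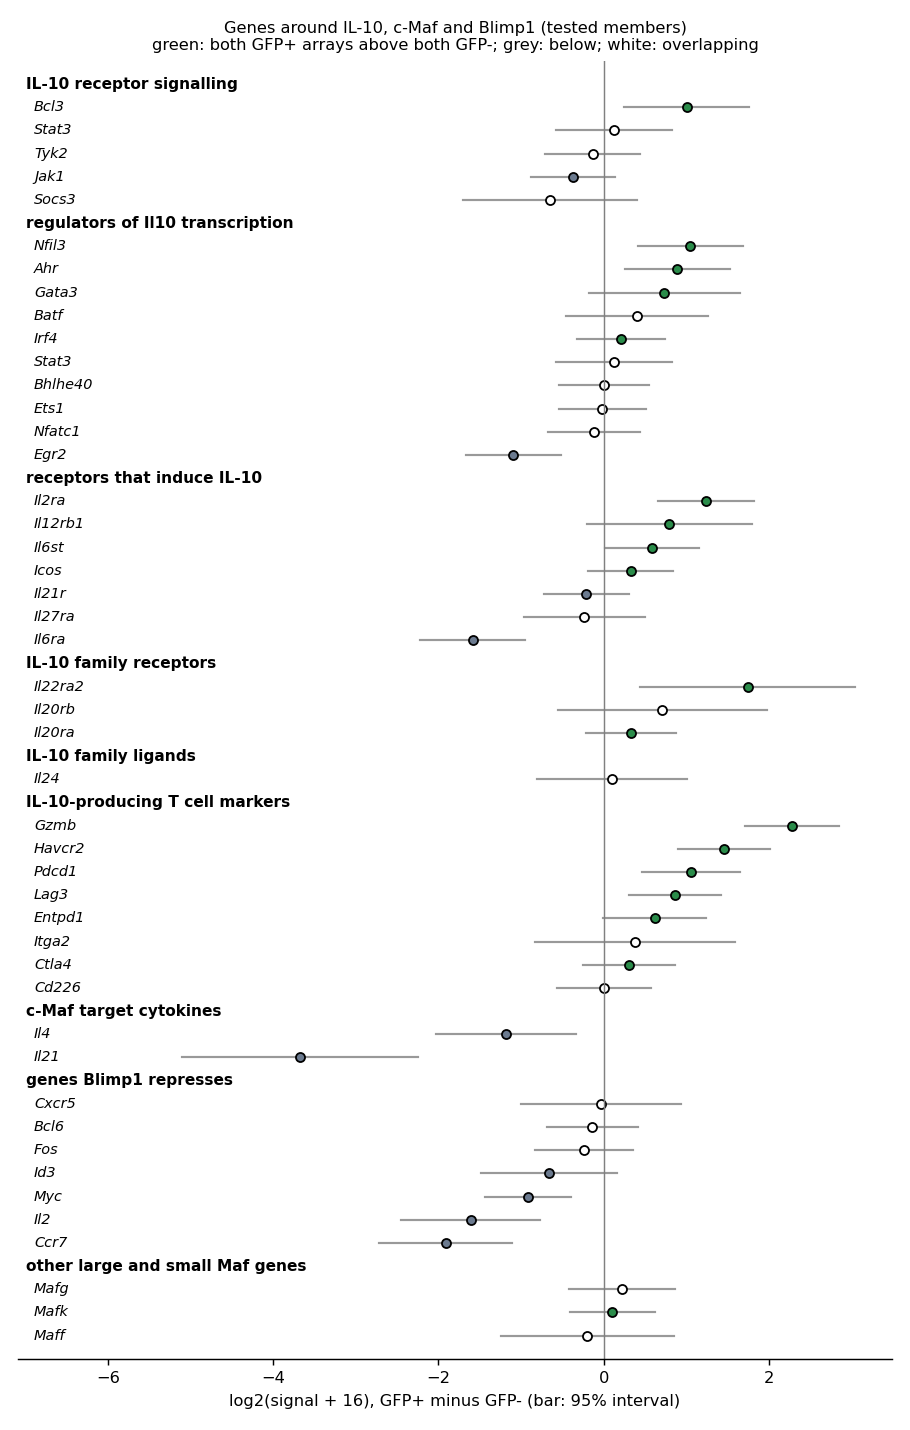
Log2(signal + 16) differences, GFP+ minus GFP-, of the tested genes of 9 lists around IL-10, c-Maf and Blimp1, with limma 95% intervals, green points where both GFP+ arrays were above both GFP- arrays, grey points where both were below and white points where the groups overlapped. Points of the IL-10-producing T cell list run from 0.01 for Cd226 to 2.29 for Gzmb, and those of the genes Blimp1 represses from -1.91 for Ccr7 to -0.03 for Cxcr5.

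The tested genes nearest to each of the 5 were found by the Euclidean distance of their log2(signal + 16) values over the 4 arrays, each centred on its mean. The 3 nearest to Il10 were Sdc4, Hoxb4 and Lamc1, at distances of 0.0975, 0.143 and 0.155. Sdc4, which encodes the proteoglycan syndecan-4, had signals of 806 and 699 in GFP- and 2547 and 2435 in GFP+ cells. Acod1, Ttc39c and Rin2 were nearest to Prdm1, at 0.0816, 0.105 and 0.112. Acod1, the enzyme gene for itaconate, had 73.8 and 64.5 against 254 and 187.

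Dsg2, Cd99 and Muc1 were nearest to Il10rb, at 0.0695, 0.0864 and 0.094. Dsg2, a desmosomal cadherin gene, had 71.4 and 127 in GFP- and 256 and 183 in GFP+ cells, and Muc1, a membrane mucin gene, had 7.32 and 25.6 against 62.1 and 35.1. Like Il10rb, these genes were highest on GFP+ replicate 1. Nop9, 9130016M20Rik and Insm1 were nearest to Il10ra, at 0.047, 0.0544 and 0.0607, and Serpinb7, Herc2 and Fam3c to Maf, at 0.0145, 0.0305 and 0.0337. Likeness over 4 arrays is a description of these arrays, with no test.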

How the data were processed

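Total RNA from 4 sorted samples was biotin-labelled for Affymetrix arrays, per the labels. The authors deposited linear probe set intensities, made by software and a summary method not given in the sources used here. The 2% trimmed mean was 150.0 on every array while medians were 37.0 and 36.1 (GFP-) and 46.0 and 45.2 (GFP+), so arrays differ in the balance of dim and bright signals.

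Deposited intensities were taken to log2 after adding 16. Of 45101 probe sets, 34945 non-control ones had 1 symbol in the platform annotation, 932 had several and 9211 none, while 13 control probe sets with a symbol were left out. Gene identifiers of 34741 matched RefSeq, which renamed 0. The probe set of highest mean log2 value stood for its gene, and of 18193 genes the 12252 brighter than the lowest 40% of non-control probe sets (about 27.3 in signal) were tested with limma 3.58.1 in R 4.3.3, two-sided, with Benjamini-Hochberg adjustment. Other probe sets came from the same fit over all probe sets. The scripts were tested on simulated data. The 2 arrays per group limit the precision.

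The 5 genes and the lists were chosen with earlier results of these data known. Of each list, genes named were those that passed or differed at least 2-fold without overlap, and the 2 brightest others. Socs3, Ahr, Mafg, Cd226, Cxcr5, Krt20, Krt8, Derl3, Mcpt1, Mcpt2, Fcer1a, Cpa3, Ncr1 and Klra8 were named after their values were seen. The same holds for Cd8b1, Cd3g, Cd4, Cd2, Cd5, Cd79a, Blk and Itga2. Alternatives covered pseudocounts, normalization, filters, probe set choice, the eBayes settings, the replicate block and each array left out.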

Additional observations from a re-analysis of the deposited data

How the results depend on the processing

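Genes that passed numbered 4, and 0 with a pseudocount of 1, quantile, cyclic loess or median normalization, no filter, the replicate block, any 1 array left out (0 to 0) or brightness by mean linear signal, an alternative chosen after seeing the data. They numbered 175 with a pseudocount of 64, 50 with the filter at the 60th percentile, 8 with the mean of probe sets and 240 with trend and robust eBayes settings. At an unadjusted p under 0.05 limma found from 1211 to 2188 genes in these fits with 0. Genes at least 2-fold apart without overlap numbered 577, against 1146 and 182 with pseudocounts of 1 and 64, 897 without the filter, 351 with the 60th percentile, 376 with the mean of probe sets and 759 to 932 without 1 array. Of them 72.1% were higher, against 28.8% (164 of 570) under median scaling, 56.7% under quantile and 56.2% under cyclic loess normalization, 58.8% with a pseudocount of 64.

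Il10 passed with a pseudocount of 64 (1.58, adjusted p = 0.00429), the 60th percentile filter (1.62, 0.0342) and trend and robust settings (1.62, 0.000219). Prdm1 passed with that pseudocount (1.26, 0.0201) and those settings (1.42, 0.0111). The cause was not tested. Il10, Il10ra, Il10rb and Prdm1 kept a positive difference in all 15 fits. The filters, the eBayes settings and the replicate block leave the difference itself unchanged, so those fits are no check of its direction. The same holds for the mean of probe sets in Il10 and Prdm1, with 1 probe set each. Brightness by mean linear signal also left the differences of these genes unchanged. Maf turned to -0.24 under median scaling, -0.059 without GFP- replicate 1 (its range without 1 array was -0.059 to 0.21) and -0.60 on its dimmest probe set. Maf was 0.28 and -0.13 within replicate numbers 1 and 2, and Il10rb 1.67 and 0.39. Deviations of same-numbered arrays correlated at 0.198, and the labels do not say that numbers pair samples. With the replicate number as a block the adjusted p was 0.111 for Il10, 0.126 for Prdm1, 0.228 for Il10ra, 0.246 for Il10rb and 0.895 for Maf. The number of arrays and the dim signals of Il10ra and Il10rb limit these values.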
